A study of Mus musculus with 2 samples.

Results

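Cells with transcripts of Gata1 or Klf1 were described in 1 pool of mouse bone marrow cells, as 98 of 2948 kept cells that were not in mitosis by a marker count. They were chosen by the measured counts of those transcripts, as cells with at least 1 unique molecular identifier (UMI, a tag that counts a captured transcript once) of Gata1 or Klf1, so the levels of these 2 genes are no finding and were left out of every comparison. A kept cell had at least 500 UMIs, at most 20% mitochondrially encoded UMIs and fewer than 4 UMIs summed over 12 genes of the G2 and M phases. The pool mixed GFP+ cells with wild-type hematopoietic stem cells before droplet sequencing on the inDrops platform. The GFP+ cells came from mice with an Mds1-GFP/+ allele and Flt3-Cre, a recombinase driven by the promoter of a multipotent progenitor gene, and were sorted on GFP and viability alone. The GFP cassette is flanked by loxP sites, which Cre can remove. The wild-type cells were sorted as long-term hematopoietic stem cells (LT-HSCs) by the SLAM gate, lineage negative, cKit+, Sca+, CD48- and CD150+. Both came from marrow depleted of red cells by lysis and of cells with B220, Gr1, Ter119, CD4 or CD8, and the ages and number of the mice are not given in the sources used here. The 2 libraries are aliquots of that pool, so n = 1 and no value has a biological replicate.

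GATA1 is a zinc finger transcription factor that binds GATA letters in DNA and is required for red cell, megakaryocyte, mast cell, basophil and eosinophil development. KLF1 is a zinc finger factor of the red cell lineage, where it turns on globin and membrane genes. In the marrow the stem cell compartment is known to hold cells that already transcribe megakaryocyte genes, and the megakaryocyte and erythroid lineages share GATA1, its cofactor FOG1 (Zfpm1) and GFI1B.

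The aliquots held 10809 barcodes and 6528388 UMIs, of which 3402 barcodes passed the depth and mitochondrial limits. In aliquot 1, 38 of 1399 cells held a Gata1 or Klf1 UMI (2.72%, 95% exact Clopper-Pearson interval 1.93 to 3.71%), and in aliquot 2 60 of 1549 (3.87%, 2.97 to 4.96%). The aliquots differ in depth, with medians of 900 and 1981 UMIs in kept cells, and after each cell was thinned to 500 UMIs the shares were 1.22% and 0.775%. The 98 cells were deeper than the other kept cells, with a median of 2058 against 1256.5 UMIs. They were therefore set against 98 kept cells without either transcript, paired within an aliquot on the UMI total, at most 10% apart, with a median of 2049 UMIs. The aliquots shared 461 barcode sequences, of which 55 were kept in both and 1 was a Gata1 or Klf1 cell in both. Kept cells with the same barcode in both aliquots had a median profile correlation of 0.163 over 1450 genes, against 0.137 between different barcodes. All intervals below are at 95% and cover counting error only.

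The defining UMIs were few. Gata1 gave 139 UMIs in 87 cells, at most 6 in a cell, and Klf1 gave 12 UMIs in 12 cells. Of the 98 cells, 86 had Gata1 alone, 11 had Klf1 alone and 1 had both. 72 cells rested on 1 UMI, 12 on 2 and 14 on 3 or more. Kept cells with at least 5 UMIs of granulocyte, mast cell and basophil markers, a group at a similar median depth of 1991 UMIs, held either transcript in 0 of 16 cells, which allows a share of cells with a UMI of up to 18.75%. In aliquot 2 the kept cells held 103 Gata1 or Klf1 UMIs, 33.2 CPM (UMIs of a gene scaled to 1000000 in all), against 21 UMIs or 39.95 CPM in the 6291 barcodes under 200 UMIs. The 103 UMIs stand against 5.17 (3.20 to 7.90) that the kept cells would hold at the load per barcode of those small droplets. In aliquot 1 the kept cells held 48 such UMIs, against 0 in 30319 UMIs of 201 small barcodes, which are so few that their load allows up to 25.7 of the 48. The part of free RNA in the 72 cells with 1 UMI was not tested further. The GFP reporter was seen in 2 of the 98 cells and in 2 of the 98 matched cells, so the sort each cell came from cannot be told apart. The study's design states 46 GFP cells after processing, and 71 of the 3402 barcodes within the limits held a reporter UMI.

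The windows from 250 bases before to 50 bases after the start of the defining genes, of Epor and of 2 megakaryocyte genes taken up below are shown, because GATA1 reads GATA letters. Capitals mark matches to the letters GATA with A or T before and A or G after them, read on either strand, and the sequences are RefSeq, build GRCm38.p6, 5′ to 3′ on the strand of the gene. Klf1, the gene of the red cell factor, and Epor, the erythropoietin receptor, had 1 match each before the start, beginning at -80 and -54. Pf4, the platelet factor 4 chemokine, had 1 match at 36 bases after the start, and Gata1 and Itga2b, the integrin alpha chain CD41 of platelets, had none in this window. Such a match is common, in 29.8% of the 32851 windows of the table, and says nothing of binding.
Gata1, chrX:7967861-7968160, minus strand: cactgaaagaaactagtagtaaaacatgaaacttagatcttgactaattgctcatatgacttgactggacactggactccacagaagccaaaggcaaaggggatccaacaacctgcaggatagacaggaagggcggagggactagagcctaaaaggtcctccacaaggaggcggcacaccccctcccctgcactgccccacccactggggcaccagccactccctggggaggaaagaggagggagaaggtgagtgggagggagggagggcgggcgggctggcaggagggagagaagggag
Klf1, chr8:84901732-84902031, plus strand: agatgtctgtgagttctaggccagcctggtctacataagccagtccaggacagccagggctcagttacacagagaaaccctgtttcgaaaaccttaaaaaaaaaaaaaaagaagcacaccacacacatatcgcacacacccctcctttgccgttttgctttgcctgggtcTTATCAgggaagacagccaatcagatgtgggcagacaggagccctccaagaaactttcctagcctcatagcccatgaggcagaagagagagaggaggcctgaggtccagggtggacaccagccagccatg
Epor, chr9:21963527-21963826, minus strand: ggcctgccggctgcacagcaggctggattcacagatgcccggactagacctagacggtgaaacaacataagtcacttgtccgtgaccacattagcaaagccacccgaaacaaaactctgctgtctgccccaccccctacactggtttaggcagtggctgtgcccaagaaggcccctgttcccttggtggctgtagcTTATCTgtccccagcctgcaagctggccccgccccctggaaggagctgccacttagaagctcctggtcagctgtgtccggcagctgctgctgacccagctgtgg
Pf4, chr5:90772185-90772484, plus strand: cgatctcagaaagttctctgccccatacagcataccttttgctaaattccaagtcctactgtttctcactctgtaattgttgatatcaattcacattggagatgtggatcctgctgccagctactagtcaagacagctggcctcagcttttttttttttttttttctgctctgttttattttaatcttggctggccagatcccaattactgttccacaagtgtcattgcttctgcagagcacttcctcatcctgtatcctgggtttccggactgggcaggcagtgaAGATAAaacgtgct
Itga2b, chr11:102469834-102470133, minus strand: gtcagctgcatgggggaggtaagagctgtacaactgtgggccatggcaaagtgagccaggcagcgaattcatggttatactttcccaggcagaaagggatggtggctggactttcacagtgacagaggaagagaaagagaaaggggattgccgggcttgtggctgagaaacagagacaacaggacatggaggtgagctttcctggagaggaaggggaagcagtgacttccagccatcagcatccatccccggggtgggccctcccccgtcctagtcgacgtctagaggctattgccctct

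The red cell markers given for these cells, Epor, Car1 and Car2, were not clearly raised as a group against 1 matched cell per member. The cells are therefore called here by their transcripts and not by a cell type. Car2, carbonic anhydrase 2, had 105 and 305 UMIs in the Gata1 or Klf1 cells of aliquots 1 and 2, against 119 and 262 in the matched cells. That is a ratio of 1.07 (0.933 to 1.24), below 1 in aliquot 1 and above 1 in aliquot 2. Car1, the carbonic anhydrase of early red cell progenitors, had 4 UMIs in 2 of the 98 cells, against 0 in the matched cells and 0 in all 2850 other kept cells. Epor had 4 UMIs in 4 of the 98 cells, against 0 in the matched cells and 39 UMIs in 34 of the 2850 others. Car1 and Epor are too sparse for a ratio.

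Genes of maturing red cells were close to absent. Hba-a1, Hba-a2 and Slc4a1 (the band 3 anion exchanger) had 0 UMIs in both sets, and Alas2, the red cell enzyme that starts heme synthesis, had 1 against 0. Hbb-bt, a beta globin, had 3 UMIs in the 98 cells against 7 in the matched cells. The late erythroid and globin list summed to 26 against 33 UMIs, a ratio of 0.787 (0.452 to 1.36), and the heme synthesis list to 86 against 91, 0.944 (0.695 to 1.28). Cells with Ter119, a surface marker of maturing red cells, were depleted before the sorts.

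Each gene with at least 30 UMIs over both sets was called higher or lower at 1.5-fold when both aliquots lay on the same side of 1. Of 2892 such genes, 10.3% were called higher and 9.79% lower. Counts within gene lists are to be read against these shares.

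Megakaryocyte and platelet genes were higher in the Gata1 or Klf1 cells. Of 24 genes on the list 11 had enough UMIs, 6 were called higher and 0 lower, and the median log2 ratio was 1.06, against 0.04 over all genes. The whole list summed to 988 against 620 UMIs, a ratio of 1.59 (1.44 to 1.76), with 1.28 in aliquot 1 and 1.72 in aliquot 2. Without the barcodes that occur in both aliquots, which leaves 86 of the 98 cells, the list had 3 of 10 genes called higher and a median of 0.85.

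Itga2b had 23 and 52 UMIs in the Gata1 or Klf1 cells of aliquots 1 and 2, against 8 and 28 in the matched cells. Both aliquots were higher, and the ratio was 2.08 (1.38 to 3.19). Cd9, a tetraspanin of platelets and stem cells, had 34 and 105 UMIs against 10 and 53, a ratio of 2.20 (1.62 to 3.02).

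Plek (pleckstrin, a platelet protein kinase C substrate) had 45 against 17 UMIs, a ratio of 2.64 (1.48 to 4.93). F2r, the thrombin receptor, had 42 against 16 UMIs, a ratio of 2.62 (1.44 to 4.995). Mef2c, a factor used in megakaryocytes and in B lymphoid progenitors, had 85 against 40 UMIs, a ratio of 2.12 (1.44 to 3.17). For each of these 3 genes both aliquots lay above 1.

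Pf4 was uneven. It had 12 and 84 UMIs in the Gata1 or Klf1 cells of aliquots 1 and 2, against 17 and 17 in the matched cells. The groups overlapped by aliquot, with ratios of 0.705 in aliquot 1 and 4.93 in aliquot 2 and 2.82 (1.89 to 4.30) over both. A single cell held 44 of the 96 UMIs, and Pf4 was seen in 22 cells against 9. That cell also had the most UMIs over the megakaryocyte list, 123, and without it the ratios were 1.53 for Pf4, 1.64 for Itga2b and 1.95 for Cd9, and the list had 6 of 11 genes called higher, 1 lower and a median of 0.71.

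Other members were not called. Vwf, von Willebrand factor, had 19 against 17 UMIs, 1.12 (0.549 to 2.29), and Fli1, an ETS factor, had 43 against 50, 0.859 (0.558 to 1.32). Of the rarer platelet genes, Treml1 had 12 against 2 UMIs, Gp9 17 against 9 and Gp1bb 5 against 2.

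**Figure D1:**
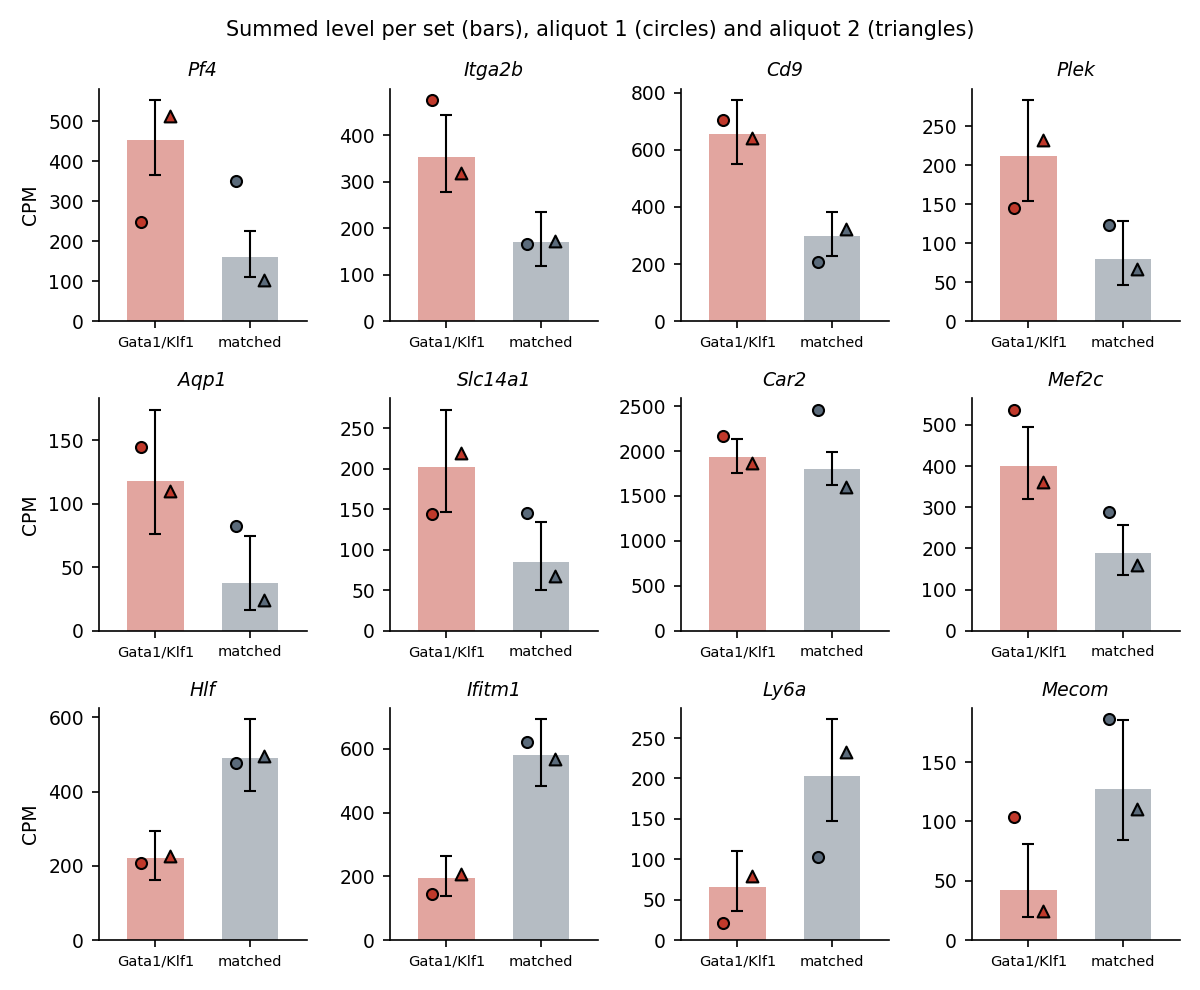
Level of 12 genes in CPM, in 98 Gata1 or Klf1 cells (red, left) and 98 depth-matched cells (grey, right). Bars are the level over both aliquots with exact Poisson 95% intervals, circles are aliquot 1 and triangles aliquot 2. Itga2b, Cd9, Plek, Mef2c and Aqp1 are higher and Hlf, Ifitm1, Ly6a and Mecom lower in both aliquots, whereas Pf4 and Car2 lie on opposite sides by aliquot.

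Of 30 early erythroid genes 7 had enough UMIs, and of these 2 were called higher and 0 lower. All 7 lay above 1, with a median log2 ratio of 0.62, but 0 were called after thinning to 500 UMIs or at 2 or more defining UMIs, and 1 under median-of-ratios scaling. Aqp1, the water channel of the red cell membrane, had 7 and 18 UMIs in the Gata1 or Klf1 cells of aliquots 1 and 2, against 4 and 4 in the matched cells, a ratio of 3.12 (1.36 to 8.005). Tmem14c, a mitochondrial protein needed for porphyrin import, had 14 and 46 UMIs against 8 and 31, a ratio of 1.54 (1.01 to 2.36). These are the 2 called members.

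Slc14a1, the urea transporter of red cells, had 7 and 36 UMIs against 7 and 11, a ratio of 2.39 (1.35 to 4.39) that came from aliquot 2, since aliquot 1 stood at 0.999. Apoe, apolipoprotein E, had 131 against 94 UMIs, 1.39 (1.06 to 1.83), Muc13 had 91 against 67, 1.36 (0.979 to 1.89), and Gypc (glycophorin C) had 27 against 14, 1.93 (0.975 to 3.97). The list summed to 827 against 659 UMIs, a ratio of 1.25 (1.13 to 1.39), with 1.02 in aliquot 1 and 1.35 in aliquot 2.

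The transcription factors of the lineage were mostly level. Of 15 measured erythroid factors and cofactors 2 were called higher and 1 lower, with a median log2 ratio of 0.17. Zfpm1, the GATA1 cofactor FOG1, had 53 against 35 UMIs, a ratio of 1.51 (0.969 to 2.39). Gfi1b, a repressor needed by both lineages, had 20 against 11 UMIs, 1.82 (0.829 to 4.20). Hemgn, a red cell nuclear factor, was the member called lower, with 11 against 24 UMIs, 0.458 (0.202 to 0.971).

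Lmo2 (125 against 94 UMIs, ratio 1.33), Myb (76 against 55, 1.38), Tal1 (33 against 38, 0.867) and Nfe2 (33 against 34, 0.969) were not called. The stem cell factor Gata2 had 23 and 96 UMIs in the Gata1 or Klf1 cells of aliquots 1 and 2, against 23 and 71 in the matched cells, a ratio of 1.26 (0.957 to 1.68). Of the other GATA and KLF genes, Klf6 had 8 against 28 UMIs, 0.285 (0.112 to 0.643), and Gata3 had 12 against 23, 0.521 (0.236 to 1.09), both called lower.

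**Figure D2:**
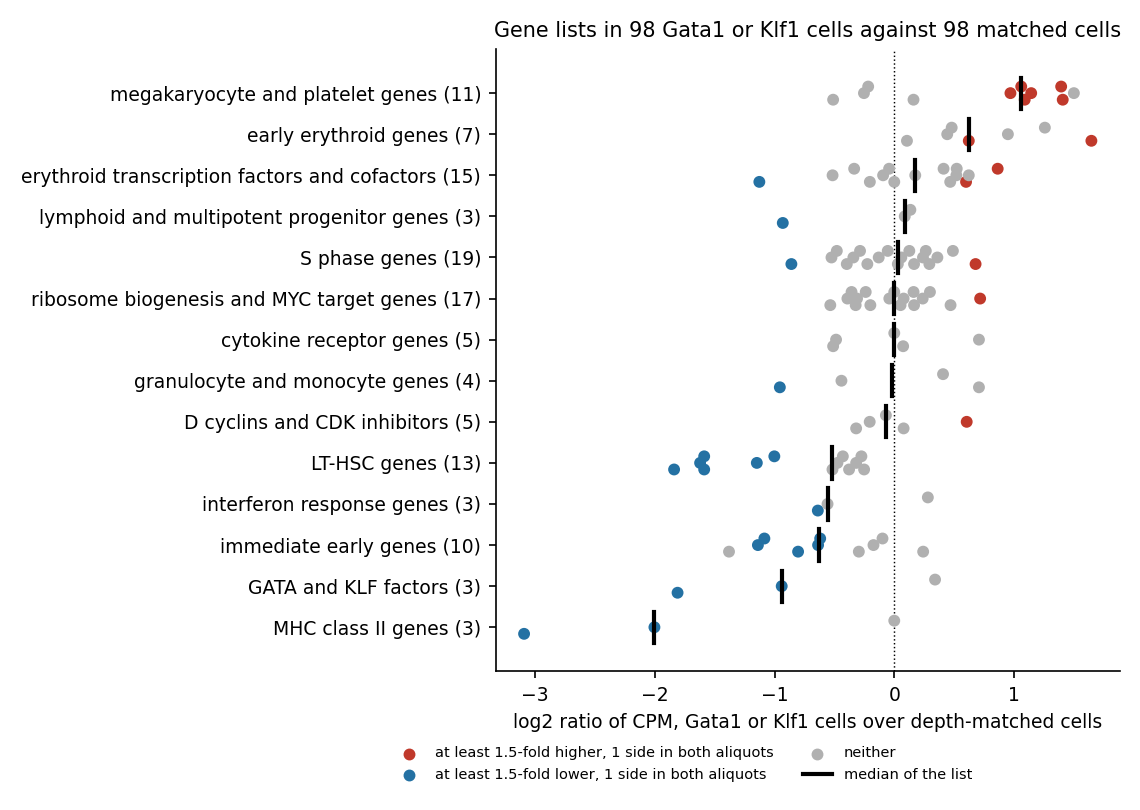
Log2 ratio of CPM for each measured gene of 14 lists, 98 Gata1 or Klf1 cells over 98 depth-matched cells, with the number of genes measured in brackets. Points are genes, coloured where called, and black bars are list medians, which run from 1.06 for the megakaryocyte and platelet genes to -2.002 for the MHC class II genes.

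LT-HSC genes were lower. All 13 measured members lay below 1, 6 were called lower and 0 higher, and the median log2 ratio was -0.52. The 28 genes summed to 632 against 1063 UMIs, a ratio of 0.594 (0.537 to 0.656), with 0.422 in aliquot 1 and 0.649 in aliquot 2. Without the barcodes that occur in both aliquots 4 of 11 genes were called lower and the median was -0.45.

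Ifitm1, an interferon-induced membrane protein abundant in stem cells, had 7 and 34 UMIs in the Gata1 or Klf1 cells of aliquots 1 and 2, against 30 and 93 in the matched cells, a ratio of 0.333 (0.228 to 0.478). Hlf, a PAR bZIP factor of self-renewing stem cells, had 10 and 37 UMIs against 23 and 81, a ratio of 0.451 (0.313 to 0.643). Ly6a, which encodes Sca-1, a marker of the SLAM gate, had 1 and 13 UMIs against 5 and 38, a ratio of 0.325 (0.164 to 0.606). All 3 were lower in both aliquots.

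Mecom, whose locus carries the reporter, had 9 against 27 UMIs, a ratio of 0.333 (0.138 to 0.729). Procr (EPCR) had 11 against 22 UMIs, 0.499 (0.219 to 1.07), and Socs2, a brake on cytokine signals, had 7 against 25, 0.280 (0.102 to 0.665). Ltb (lymphotoxin beta) had 1 UMI against 18, and Txnip, a thioredoxin inhibitor, had 191 against 273, 0.699 (0.578 to 0.844). Meis1 at 0.769 (0.551 to 1.07), Esam at 0.826 (0.538 to 1.26) and Pdzk1ip1 at 0.742 (0.429 to 1.27) were within counting error of 1. Kit, the stem cell factor receptor and a sort marker, was level at 140 against 133 UMIs, 1.05 (0.823 to 1.34), and Cd34 had 45 against 41, 1.096 (0.702 to 1.72).

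The same contrast was seen in the share of cells with a UMI after every cell was thinned to 500 UMIs, which left out no cell. Itga2b was detected in 14 of 98 Gata1 or Klf1 cells, 14.3% (8.04 to 22.8%), against 3 of 98 matched cells, 3.06% (0.636 to 8.69%). Hlf was detected in 9.18% (4.29 to 16.7%) against 24.5% (16.4 to 34.2%), and Ifitm1 in 6.12% (2.28 to 12.9%) against 23.5% (15.5 to 33.1%). Cdk6, a G1 kinase that drives stem cells out of quiescence, was detected in 36.7% (27.2 to 47.1%) against 17.3% (10.4 to 26.3%). Car2, at 59.2% against 53.1%, and Kit, at 25.5% against 27.6%, had intervals that overlap widely. At full depth Itga2b was seen in 34 cells against 23, Cdk6 in 66 against 43, Hlf in 25 against 50, Ifitm1 in 24 against 58, Car2 in 82 against 81 and Kit in 57 against 61. For Ly6a and Procr the shares came from 1 cell against 4 and 1 against 3 and carry no order.

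**Figure D3:**
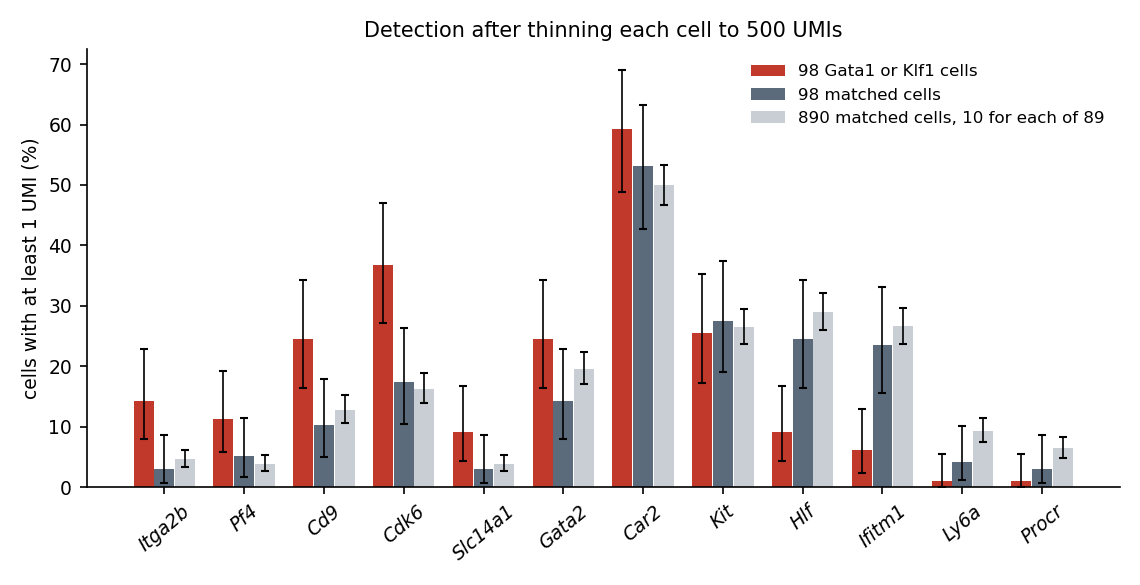
Share of cells with at least 1 UMI of 12 genes after thinning each cell to 500 UMIs, with exact Clopper-Pearson 95% intervals. Red bars are 98 Gata1 or Klf1 cells, dark bars 98 matched cells and light bars 890 cells matched 10 to each of 89 members. Itga2b, Cd9 and Cdk6 are higher and Hlf and Ifitm1 lower in the Gata1 or Klf1 cells.

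A comparison with 10 matched cells for each member was added after the data were seen and covers 89 members and 890 others. There 9.64% of 8280 genes were called higher and 18.1% lower. The megakaryocyte list had 9 of 16 genes higher and 1 lower with a median log2 ratio of 0.66, and the LT-HSC list 1 of 27 higher and 13 lower with -0.64. The early erythroid list had 3 of 9 genes higher and 1 lower, with a median of 0.58. Its summed ratio was 1.38 (1.27 to 1.49), with 1.24 in aliquot 1 and 1.43 in aliquot 2. That of the megakaryocyte list was 1.35 (1.25 to 1.46). Itga2b stood at 2.04 (1.48 to 2.76), Plek at 3.38 (2.30 to 4.89), Aqp1 at 4.03 (2.19 to 7.14) and Hlf at 0.360 (0.261 to 0.485). Pf4 stood at 2.56 (1.74 to 3.68), with 2.31 and 2.69 in the aliquots, and the cell with 44 Pf4 UMIs is not among the 89. Car2 stood at 1.23 (1.095 to 1.37) and Gata2 at 1.42 (1.15 to 1.75).

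Genes of S phase were level against 1 matched cell per member and higher against 10. Of 19 measured S phase genes 1 was called higher (Uhrf1, 48 against 30 UMIs, ratio 1.598) and 1 was called lower, with a median log2 ratio of 0.03 and a summed ratio of 1.01 (0.926 to 1.105). With 10 matched cells per member 17 of 22 lay above 1, 2 were called higher and 0 lower, the median was 0.24 and the summed ratio 1.26 (1.17 to 1.35), with 1.04 in aliquot 1 and 1.36 in aliquot 2. Against all other kept cells without depth matching the median was 0.72. Mcm6, a subunit of the replicative helicase, had 168 against 154 UMIs, 1.09 (0.870 to 1.36). Cdk6 was the 1 called gene of 5 measured D cyclins and CDK genes, with 44 and 108 UMIs in the Gata1 or Klf1 cells of aliquots 1 and 2, against 31 and 69 in the matched cells, a ratio of 1.52 (1.17 to 1.97). Its call is at the edge of the 1.5-fold limit and was lost with 2 matched cells per member (1.40), at 1000 or more UMIs (1.498), with no cycle limit (1.38), at 2 or more defining UMIs (1.46), for cells with Gata1 (1.49), under median-of-ratios scaling (1.47) and in aliquot 1 alone (1.42). Ribosome biogenesis and MYC target genes had 1 of 17 called higher, 0 lower and a median of -0.00, and with 10 matched cells 4 of 22 higher, 1 lower and a median of 0.23.

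Immediate early genes, which extracellular signals induce quickly, and 2 of 3 measured MHC class II genes were lower. Of 10 measured immediate early genes 5 were called lower and 0 higher, with a median log2 ratio of -0.63. Jun had 116 against 178 UMIs, a ratio of 0.651 (0.511 to 0.827), and Dusp1, a phosphatase of stress kinases, had 42 against 89, 0.471 (0.318 to 0.688). Fos, at 0.886 (0.585 to 1.34), and Egr1, at 1.18 (0.723 to 1.94), were within counting error of 1. Cd74, the MHC class II invariant chain, had 4 against 34 UMIs, 0.117 (0.0303 to 0.329), and H2-Aa had 9 against 36, 0.250 (0.106 to 0.528), whereas H2-DMa had 31 in each set. Without the barcodes that occur in both aliquots 2 of 10 immediate early genes were called lower.

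Markers of the other GATA1 lineages and of other marrow cells were scarce in the 98 cells. Prss34, Mcpt8 and Ms4a2 of basophils and mast cells had 0 UMIs in both sets, and Cpa3 had 2 against 0. The mast cell and basophil list summed to 150 against 148 UMIs, of which Kit gave 140 against 133. Eosinophil genes summed to 3 against 7 UMIs, and Elane and Mpo of granulocytes had 0 in both sets. B cell genes summed to 4 against 5 UMIs, macrophage genes to 4 against 1, and endothelial and stromal genes to 11 against 20. T and NK cell genes summed to 28 against 14 UMIs, of which Nkg7, a granule gene, gave 25 against 13, 1.92 (0.946 to 4.09). The ratio of this list was 2.00 (1.02 to 4.11), with 0.999 in aliquot 1 and 2.07 in aliquot 2. With 10 matched cells per member the list had 27 against 121 UMIs, 2.15 (1.36 to 3.28), with 0.402 and 2.58 in the aliquots. The granulocyte and monocyte list summed to 125 against 122 UMIs in the main comparison, and to 110 against 4234 UMIs with 10 matched cells per member, a ratio of 0.250. None of the 16 kept cells with at least 5 UMIs of granulocyte, mast cell and basophil markers was a Gata1 or Klf1 cell. Leaving these cells out gave the same calls and medians in every list, with 298 genes called higher and 283 lower. This setting was therefore no check on the part of such cells. The part of the other markers, and of any of them with 10 matched cells per member, was not tested.

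The remaining lists lay somewhat below 1, with intervals that reach it. Iron handling genes summed to 340 against 372 UMIs, a ratio of 0.913 (0.786 to 1.06), and cytokine receptor genes to 354 against 399, 0.886 (0.766 to 1.03), with 0 of 5 called. Lymphoid and multipotent progenitor genes summed to 160 against 186 UMIs, 0.859 (0.691 to 1.07), with 1 of 3 called lower. Interferon response genes summed to 82 against 107 UMIs, 0.765 (0.567 to 1.03), with 1 of 3 called lower. With 10 matched cells per member, where 18.1% of all genes were called lower, these lists were at 0.881 (0.779 to 0.993) for iron handling with 2 of 6 called lower, 0.844 (0.750 to 0.947) for cytokine receptors with 3 of 11, 0.733 (0.612 to 0.871) for lymphoid and multipotent progenitor genes with 4 of 8, and 0.655 (0.509 to 0.831) for interferon response with 5 of 9.

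Over all genes, ratios on the same side of 1 in both aliquots were ranked among 651 genes with at least 60 UMIs, after leaving out the top cell of each gene. The highest were Pgd (56 against 12 UMIs, ratio 4.66, 2.47 to 9.55), an enzyme of the pentose phosphate path, and Pak1ip1 (55 against 15, 3.66, 2.04 to 6.98), a ribosome assembly factor. Ndufs6, Plek, Ptbp3, Dcaf8, Emc6, Nsun2, Tceb2 and Snrpb2 followed, with ratios of 2.10 to 2.64. Ptbp3, an RNA-binding protein, had 28 and 87 UMIs in the Gata1 or Klf1 cells of aliquots 1 and 2, against 6 and 44 in the matched cells. The lowest were Ifitm1, Cxcr4 (17 against 45 UMIs, 0.377, 0.202 to 0.672), the chemokine receptor that holds cells in the marrow, Shisa5, Ccdc47, Fam111a, Ptprc (27 against 60, 0.449), which encodes CD45, Lrrc17, Hlf, Marcksl1 and Limd2. These were taken as extremes of 651, and with 10 matched cells per member Pgd stood at 2.55, Pak1ip1 at 2.74, Fam111a at 0.838 and Ccdc47 at 0.649.

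The 98 cells differed among themselves. Over Pf4, Itga2b, Gp9, Treml1 and Gp1bb, 5 genes chosen after their values were seen, 55 of 98 cells had a UMI, against 33 of 98 matched cells. Over 10 red cell genes chosen in the same way 41 had a UMI against 21, and over 8 stem cell genes 44 against 70. Of the 98 cells 28 held both megakaryocyte and red cell transcripts, 27 megakaryocyte alone, 13 red cell alone and 30 neither, against 12, 21, 9 and 56 of the matched cells. Megakaryocyte and stem cell transcripts were found together in 26 cells against 21.

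Levels also varied with the number of defining UMIs, a description since those UMIs chose the cells. Just outside the rule stood the matched cells with 0 UMIs and just inside it the 72 cells with 1. Itga2b was at 170 CPM (119 to 235) at 0 UMIs, 285 (205 to 385) at 1, 318 (137 to 627) at 2 and 635 (411 to 937) at 3 or more. Ifitm1 was at 581 CPM (483 to 693), 230 (160 to 322), 239 (87.5 to 519) and 25.4 (0.643 to 141) in the same order. The LT-HSC list was at 5019 CPM at 0 UMIs, 2928 at 1, 3221 at 2 and 3022 at 3 or more, and the classes were not depth-matched to one another, with medians of 2049, 1888, 1663.5 and 2834.5 UMIs. Pf4 at 3 or more UMIs, 1295 CPM, was 44 of 51 UMIs from the 1 cell described above, 16 of the 25 Itga2b UMIs there were in 1 cell, and 20 of the 34 Cd9 UMIs. Without the top cell of each class, Itga2b was at 154 CPM at 0 UMIs, 254 at 1, 227 at 2 and 253 at 3 or more, and Cd9 at 277, 522, 549 and 394, so neither was highest at 3 or more. Of the 14 cells with 3 or more, 13 were in aliquot 2.

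**Figure D4:**
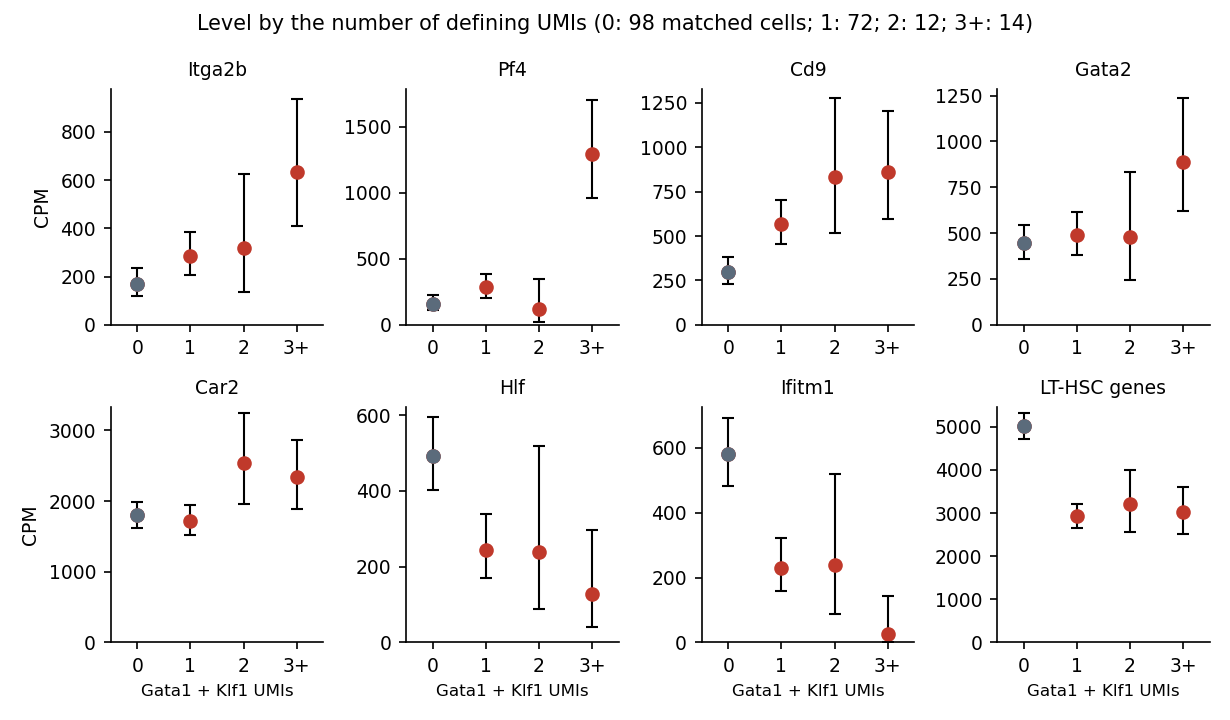
Level in CPM with exact Poisson 95% intervals by the number of Gata1 plus Klf1 UMIs, from 0 (98 matched cells, grey) through 1 (72 cells) and 2 (12 cells) to 3 or more (14 cells). Gata2 is highest and Ifitm1 and Hlf lowest at 3 or more, the high Pf4, Itga2b and Cd9 values there rest on single cells, and the LT-HSC sum is lower in all 3 classes than at 0.

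Cells with Klf1 alone were too few to set apart. The 11 cells held 0 Car1 and 0 Epor UMIs, and Car2 was at 1629 CPM (1153 to 2236), against 1946 (1751 to 2156) in the 86 cells with Gata1 alone. Hlf was at 514 CPM (266 to 899) in the cells with Klf1 alone and at 187 (130 to 260) in those with Gata1 alone. Klf1 and Gata1 were found together in 1 cell.

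The limit on G2 and M phase UMIs set aside 454 cells, and most Car1 UMIs were found there. A Gata1 or Klf1 UMI was present in 3.32% (2.71 to 4.04%) of cells under the limit, against 53 cells or 11.7% (8.87 to 14.99%) of those over it. Median depth was 1280.5 UMIs under and 2395.5 over the limit, and after thinning to 500 UMIs the shares were 0.984% (0.660 to 1.41%) and 4.19% (2.54 to 6.46%). A limit in UMIs is reached more easily by deeper cells, and the part of depth in the remaining gap was not tested.

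Car1 had 62 UMIs in 3 of the 53 cycling Gata1 or Klf1 cells, 47 of them in 1 cell, against 2 UMIs in the other 401 cycling cells. All 62 were in the 11 cycling cells with Klf1, where 4 also had Gata1. Over all 3402 cells 68 Car1 UMIs were counted. Pf4 in those 11 cells had 2 UMIs, against 33 in the 42 cycling cells with Gata1 alone, and Itga2b had 5 against 65. In CPM, Itga2b was at 146 (47.3 to 340) against 535 (413 to 682).

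The 51 cycling Gata1 or Klf1 cells that could be depth-matched were set against 51 other cycling cells, where 10.1% of 2032 genes were called higher and 9.69% lower. Of 10 measured megakaryocyte genes 4 were called higher and 0 lower, with a median log2 ratio of 0.88. Itga2b had 70 against 35 UMIs, a ratio of 2.00 (1.31 to 3.09), Cd9 118 against 59, 2.00 (1.45 to 2.78), and Plek 27 against 7, 3.85 (1.64 to 10.5). Slc14a1 had 35 against 15 UMIs, 2.33 (1.24 to 4.59), and Car2 was level at 271 against 285, 0.949 (0.801 to 1.13). The LT-HSC list had 1 of 5 genes higher and 1 lower, with Hlf at 28 against 53 UMIs, 0.527 (0.321 to 0.849). The whole list was not clearly lower here, at 302 against 318 UMIs, 0.948 (0.807 to 1.11), with 0.764 and 1.003 in the aliquots. Immediate early genes summed to 178 UMIs in each set, 0.998 (0.807 to 1.24). MHC class II genes summed to 44 against 37, 1.19 (0.749 to 1.89). The granulocyte and monocyte list had 73 against 2613 UMIs. A single cycling Gata1 or Klf1 cell of aliquot 1 held 92 Prss34 and 9 Mcpt8 UMIs, both basophil protease genes.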

How the data were processed

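The authors deposited UMI counts, whole numbers for 28206 features in each barcode, without scaling. Bowtie 1.1.1, SAMtools 1.3.1, RSEM 1.3.0 and the build GRCm38 are named in the submitters' processing notes. Which reads went to which of 2 near-identical genes is not stated there, so values of globin and other multigene families are uncertain to that extent. The members and gene lists were chosen with earlier results of these data known.

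For each set of cells, counts were added up and divided by its UMIs without the reporter, Gata1 and Klf1, which gives CPM. Each member was paired with the unused cell of its aliquot nearest in depth, deepest member first. Levels have exact Poisson intervals, ratios exact conditional binomial intervals and shares Clopper-Pearson intervals. PCR and cell-to-cell variation are not in these intervals, so they are too narrow. With 1 pool there is no test and no p-value, and the 2 aliquots are technical. A count of 0 was bounded by 3 counts in log2 ratios and for the 0 of 16 marker cells, where the exact interval reaches 20.6%. The 0 UMIs in the small barcodes of aliquot 1 were bounded by the exact Poisson limit.

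The text names, by rule, Gata1, Klf1 and Gata2, erythroid list members with at least 30 UMIs over both sets, up to 6 members with most UMIs of every other list, and 10 genes from each end of the ranking. Ranked genes needed at least 60 UMIs, seen or expected in at least 10 cells per set, and 1 direction in both aliquots. Rarer genes, other list members outside that rule and the co-detection genes were chosen after their values were seen. So was leaving Kit, Lyz2, Prtn3, Csf3r, Spi1, Cebpa and Fcer1g out of the granulocyte, mast cell and basophil marker sum. Doublets were left in. Scrublet, run in scanpy 1.11.5 at an expected rate of 6%, marked 0.572% and 0.875% of cells, with 1 and 2 of the members. Calculations were checked on simulated data. RefSeq windows were found for 17 of 20 genes searched. Software was Python 3.11.15 with numpy 2.4.6, scipy 1.17.1, pandas 2.3.3 and matplotlib 3.10.9. Alternatives changed the cell filters, membership, matching, scaling, count minimum and depth. Some genes are not reported here.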

Additional observations from a re-analysis of the deposited data

Results flagged for a closer look

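In cells outside the comparison, those over the limit on G2 and M phase UMIs, 11.7% held Gata1 or Klf1. These 53 cells held 62 Car1 UMIs in 3 cells, 47 of them in 1 cell, against 2 Car1 UMIs in the 401 cells over the limit without either transcript.

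For Tmem14c the ratio pointed one way in both aliquots under that limit and the other way in both aliquots over it, and the difference was not tested. It had a log2 ratio of 0.62 under the limit (60 against 39 UMIs) and -0.84 over it (19 against 34).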

How the results depend on the processing

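Members and matched cells were paired by aliquot and depth, but counts were summed over each set and the pairs were not analysed. No test was run, since the 2 libraries are aliquots of 1 pool. The 298 genes called higher and 283 called lower became 1048 and 2035 against all other kept cells, 798 and 1502 with 10 matched cells per member, 75 and 59 at 2 or more defining UMIs, 20 and 15 for cells with Klf1, 843 and 1124 at a minimum of 10 UMIs summed, 25 and 21 at 100, 1132 and 1773 with no minimum, and 47 and 41 after thinning to 500 UMIs. The lower calls were 540 with 2 matched cells per member and 468 with no cycle limit. With either aliquot left out the counts ran from 50 to 350 higher and from 34 to 289 lower.

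The 2 early erythroid calls were 6 against all other kept cells, 5 with no cycle limit, 1 at 1000 or more UMIs, for cells with Gata1, for cells with Klf1, under median-of-ratios scaling and without barcodes seen in both aliquots, and 0 at 2 or more defining UMIs, at 100 UMIs summed and after thinning; with either aliquot left out they were 1 to 2. Their median log2 ratio of 0.62 was 0.26 at 2 or more defining UMIs and 0.21 to 0.56 with either aliquot left out. The megakaryocyte median of 1.06 was 0.66 with 10 matched cells, 0.71 without the cell with most Pf4 UMIs and 0.60 to 1.08 by aliquot. The LT-HSC median of -0.52 was -1.30 after thinning and -1.36 to -0.35 by aliquot. The S phase median of 0.03 was 0.72 against all other kept cells and -0.32 to 0.032 by aliquot.

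The Car2 ratio of 1.07 was 1.29 against all other kept cells, 1.33 at 2 or more defining UMIs, 1.70 for cells with Klf1 and 0.882 to 1.16 by aliquot. The share of 3.32% was 4.25% at 1000 or more UMIs, 4.44% with no cycle limit, 0.984% after thinning and 2.72 to 3.87% by aliquot. Among the 12 cells with Klf1, ratios were 0.250 for Tmem14c, 1.50 for Hlf, 1.33 for Procr, 2.00 for Mecom and 1.43 for Dusp1. Each of these genes was under the UMI minimum for a call in that setting. The ratios lay on the other side of 1 from the main comparison but rest on few UMIs. Whether the direction is reversed in cells with Klf1 cannot be judged from them. The 10-cell matching, the omitted Pf4 cell and the shared barcodes were chosen after seeing the data. Fewer genes pass a higher minimum and fewer UMIs remain after thinning; the cause of the other shifts was not tested. Epor and Car1 gave no ratio, since no matched cell held a UMI.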

Other observations

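The 298 genes called higher and 283 called lower had windows in the RefSeq table for 233 and 220. Shares here are of genes with a window, and a gene counted when any of its windows held the letters. The GATA letters were found for 19.3% of genes called higher and 26.8% of those called lower, against 21.0% of the 2215 measured genes. The KLF letters CCNCNCCC, read on both strands, were in 76.4% and 72.7%, against 75.4%. The ETS letters CNGGAAG were in 46.8% of both sets, against 47.5%, and the RUNX letters TGNGGT in 46.8% and 44.1%, against 45.7%. A window can hold several of these motifs, and the shares were not tested.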
